A study of Mus musculus with 4 samples.

Results

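The structural and surface genes of the trophectoderm were followed in mouse blastocysts with maternal chromosomes only and in fertilized blastocysts. The set holds 9 genes: the keratins Krt8, Krt18, Krt7 and Krt19, the desmosomal plaque gene Dsp, the E-cadherin gene Cdh1, the galectin gene Lgals3 and the trophoblast surface genes Plac1 and Plet1. All probe sets that the platform annotation ties to 1 of these genes and to no other were taken, 15 of the 45037 on the array that are not controls, for 9 of the 18193 genes with a probe set of their own. RNA was measured on 4 Affymetrix arrays, 1 for each condition. Embryos were either parthenogenetic or fertilized and either diploid or tetraploid, and each array took RNA from a pool of 30 blastocysts collected at 96 hours (day 4). Parthenogenetic embryos arise from an oocyte without sperm, and the tetraploid embryos of either origin had been made by fusion. The mouse strain, the way oocytes were activated and the way embryos were fused are not given in the sources used here. Since no condition has a second array, the series text lets the tetraploid pool of an origin stand in for a repeat of the diploid pool. A p-value for origin therefore measures no spread between repeats of 1 condition. It rests on the spread between 2 pools of different ploidy, with technical error inside it. That spread is combined with the spread of other probe sets of like signal.

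The trophectoderm is the outer epithelium of the blastocyst. It seals and pumps the blastocoel and gives rise to the trophoblast of the placenta. Its cells build keratin filaments from obligate pairs of 1 type I chain (Krt18, Krt19) and 1 type II chain (Krt8, Krt7). Desmoplakin, the product of Dsp, ties these filaments to the desmosomes that join neighbouring cells, while E-cadherin joins them through the actin-linked adherens junction. Galectin-3 (Lgals3) binds sugars on surface proteins, Plac1 is a trophoblast membrane protein gene on the X chromosome, and Plet1 encodes a surface protein of trophoblast progenitors. E-cadherin is also made by the inner cell mass, so it marks epithelium rather than the outer layer alone.

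Windows around the annotated gene starts were available for 7 of the 9 genes, as 8 RefSeq promoters of 300 bases in build GRCm38.p6 (250 bases before to 50 after the start). The keratin and Plac1 windows are shown because the neighbouring genes Krt8 and Krt18 on chromosome 15 had opposite differences between the origins, with Krt7 further along the same chromosome, and because Plac1 had the smallest p of the set. Capitals mark matches, on either strand, to 6 short motifs, namely the TATA box TATAAA, the GC box GGGCGG, the TEAD motif GGAATG, the AP-1 motif TGANTCA, the AP-2 motif GCCNNNGGC and the GATA motif AGATAA. Plac1 has 2 annotated starts, and the array does not tell which was used.
Krt8, chr15:102004293-102004592, minus strand: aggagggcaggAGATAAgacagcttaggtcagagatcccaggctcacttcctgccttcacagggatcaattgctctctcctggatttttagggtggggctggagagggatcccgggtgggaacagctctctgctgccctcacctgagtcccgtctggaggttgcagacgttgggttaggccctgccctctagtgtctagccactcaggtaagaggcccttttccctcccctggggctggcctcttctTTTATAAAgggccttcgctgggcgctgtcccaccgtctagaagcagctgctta
Krt18, chr15:102027966-102028265, plus strand: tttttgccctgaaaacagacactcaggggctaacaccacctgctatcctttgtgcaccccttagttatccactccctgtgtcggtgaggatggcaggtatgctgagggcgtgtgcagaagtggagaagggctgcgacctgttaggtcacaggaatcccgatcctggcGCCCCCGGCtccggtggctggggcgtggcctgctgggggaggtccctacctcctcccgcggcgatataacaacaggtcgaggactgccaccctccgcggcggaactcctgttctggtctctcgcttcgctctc
Krt7, chr15:101412153-101412452, plus strand: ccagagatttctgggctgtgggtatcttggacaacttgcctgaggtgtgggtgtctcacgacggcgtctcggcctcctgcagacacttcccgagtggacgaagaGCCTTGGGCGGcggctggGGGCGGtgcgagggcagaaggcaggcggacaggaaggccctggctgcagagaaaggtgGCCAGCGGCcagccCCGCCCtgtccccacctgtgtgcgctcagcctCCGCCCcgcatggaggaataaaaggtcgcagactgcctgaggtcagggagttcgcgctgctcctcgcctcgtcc
Plac1, first start, chrX:53240061-53240360, minus strand: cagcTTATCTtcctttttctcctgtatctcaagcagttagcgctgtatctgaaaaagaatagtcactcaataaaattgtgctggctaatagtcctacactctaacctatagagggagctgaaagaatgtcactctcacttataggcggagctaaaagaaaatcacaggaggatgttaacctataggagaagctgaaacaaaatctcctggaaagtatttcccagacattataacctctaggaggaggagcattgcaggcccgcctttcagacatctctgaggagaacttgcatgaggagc
Plac1, second start, chrX:53114356-53114655, minus strand: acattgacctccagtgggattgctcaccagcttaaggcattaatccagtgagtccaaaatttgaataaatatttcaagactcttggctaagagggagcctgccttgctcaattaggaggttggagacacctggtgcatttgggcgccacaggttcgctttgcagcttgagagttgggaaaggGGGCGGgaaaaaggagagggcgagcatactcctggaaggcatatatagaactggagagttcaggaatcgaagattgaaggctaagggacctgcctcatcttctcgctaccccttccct

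The keratin pair of the blastocyst did not share motifs in these windows. Krt8 held a TATA box that reads on both strands at its annotated start and a GATA motif, and Krt18 held 1 AP-2 motif. Krt7 held 4 GC boxes and 2 AP-2 motifs, of which 1 AP-2 motif overlaps a GC box. The first start of Plac1 held a GATA motif and the second a GC box. Over the 8 promoters of the set, the GC box occurred in 4 and the AP-2 motif in 3, against 35.7% and 16.6% of the 32851 promoters of the same length. The TATA box occurred in 2, the GATA motif in 2 and the AP-1 motif in 1, against 13.6%, 11.2% and 7.81% of all. The TEAD motif was in 0 of 8, against 14.7% of all promoters. The 8 promoters had a median of 59.7% G and C, against 52.7% for all promoters, and the shares were matched for length only. The motifs are matches of letters within 300 bases, not measured sites.

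Arrays were compared on MAS5 signals, an intensity per probe set on a linear scale. The control floor of each array, taken as the 95th percentile of 27 probe sets for bacterial transcripts, lay between 99.7 and 150.3. It takes these transcripts as not added to the samples, which the labels do not state. The highest of the 27 reached 124 to 202 across the arrays. Of the 15 probe sets, 12 were above the floor on all 4 arrays and 13 passed the filter on dim signals (at least the array median on 2 of 4 arrays). The parthenogenetic tetraploid array correlated least with the other 3 (Pearson r of log2 signals across the 23746 probe sets kept 0.84 to 0.86, against 0.87 to 0.90 among those 3). It also had the highest ratio of 3' to middle signal for the Actb control, 9.28 against 5.13 to 7.55, while the ratio of 3' to 5' signal for Actb was highest on the fertilized diploid array (137 against 107.7 to 127). All 11 listed transcription factors of the trophectoderm, Cdx2, Eomes, Gata3 and Tfap2c among them, were above the floor on every array. So were all 14 epiblast markers listed further below. Of all probe sets other than controls, 47.1% to 55.4% were above the floor of their array. Factors of the labelled stage were thus detected, though a signal above the floor does not define a stage.

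The set held no gene that passed the test of origin. With limma on log2(signal + 10), 0 of 13 probe sets reached an adjusted p of 0.05 (Benjamini-Hochberg over all probe sets kept), where the background was 0.173% of all probe sets (0.0674% higher and 0.105% lower in parthenogenetic embryos). At an unadjusted p under 0.05 there were 3, against 8.86% of all probe sets. These were Plac1 and Krt7, with higher values (background 4.67%), and Lgals3, with a lower value (background 4.19%). Signals of the origins did not overlap for 5 probe sets that were higher in parthenogenetic embryos (background 21.5%) and for 4 that were higher in fertilized embryos (background 19.0%), of which Krt19 passed the filter through the fertilized arrays alone. Counted by the brightest probe set of each gene, Krt8, Krt7 and Plac1 were higher on both parthenogenetic arrays, Krt18, Krt19, Dsp and Lgals3 were higher on both fertilized arrays, and Plet1 and Cdh1 overlapped. The median difference over the 9 genes, parthenogenetic minus fertilized, was -0.12 on the log2 scale, against 0.02 for the 11404 genes kept, and it was the same with Krt19 at its bound by the floor. In bulk RNA of a pool, fewer cells of a type cannot be told apart from less RNA per cell.

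**Figure D1:**
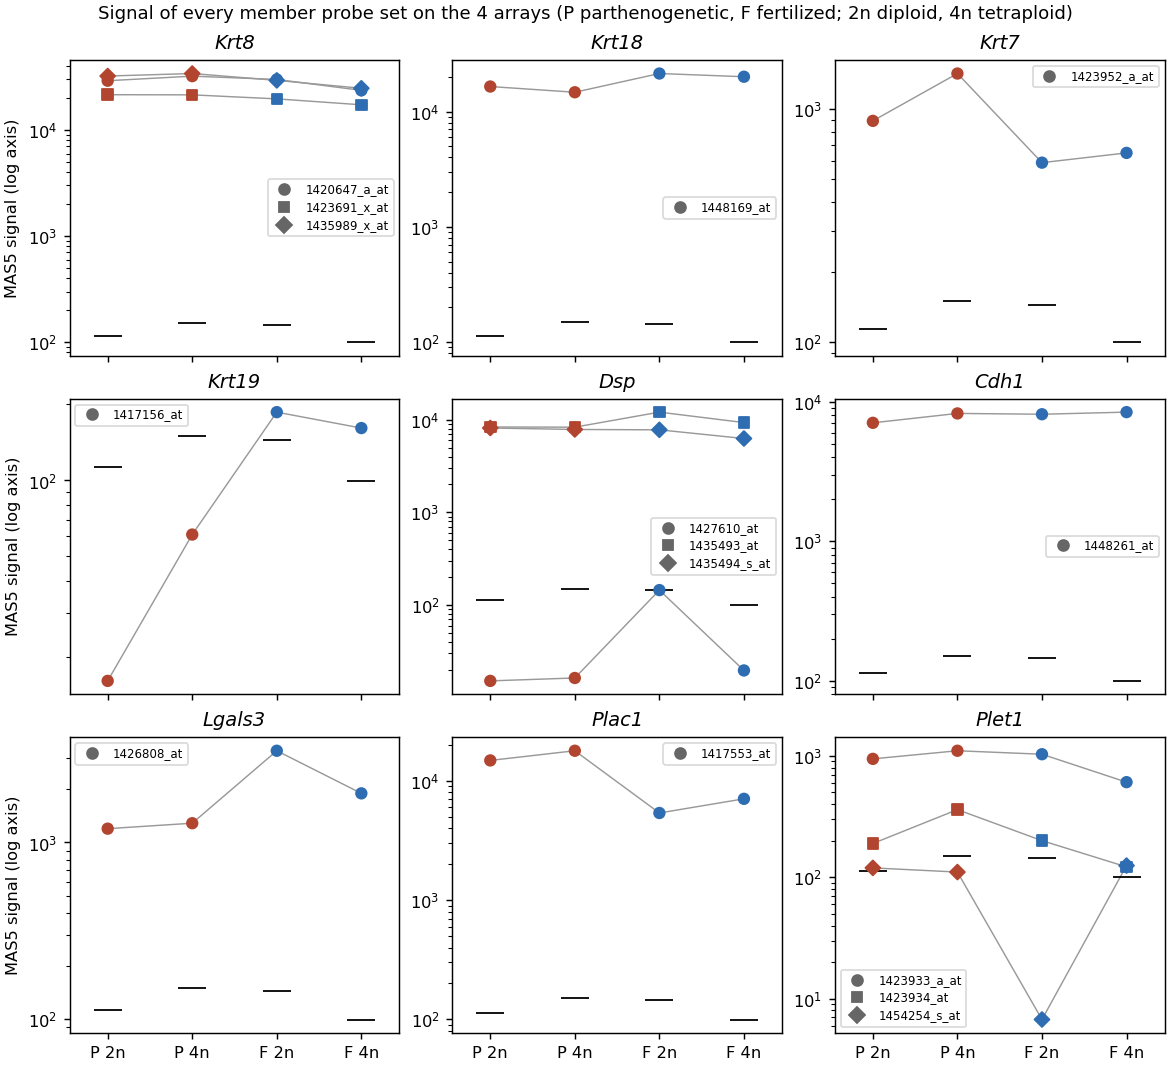
MAS5 signal (log axis) of every probe set of the 9 genes on the parthenogenetic (P, red) and fertilized (F, blue) arrays, diploid (2n) and tetraploid (4n); each point is 1 array, marker shapes are probe sets named in each panel, grey lines only join points of 1 probe set, and black dashes are the control floor of each array. Plac1 and Krt7 are higher on both parthenogenetic arrays, Lgals3 and Krt18 on both fertilized arrays, and Krt19 lies under the floor on both parthenogenetic arrays.

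The type II keratins Krt8 and Krt7 had the higher values in parthenogenetic embryos, though Krt8 turned to a value near 0 with arrays scaled to a common median. Krt8, the main type II keratin of early embryonic epithelium, had signals of 32247 and 34062 on the parthenogenetic diploid and tetraploid arrays and 29352 and 24729.5 on the fertilized ones, by its brightest probe set (1435989_x_at). Both parthenogenetic values lay above both fertilized values. The difference was 0.30 ± 0.22 (SE; 2 arrays per origin; limma adjusted p 0.69), with a 95% interval from -0.18 to 0.77. With arrays scaled to a common median it was -0.02, where all probe sets kept had a median of -0.30, so that Krt8 lay 0.28 above that median, as it did without the rescaling. A further probe set of Krt8 (1423691_x_at) gave 21504.5 and 21439 against 19647 and 17277 (difference 0.22 ± 0.22). The third (1420647_a_at) gave 29133 and 32173 against 29937 and 23645 (0.20 ± 0.22), where the diploid arrays lay in the opposite order. Probe sets whose names end in x_at can hold probes that match other transcripts, so those of Krt8 may not measure its RNA alone.

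Krt7, a type II keratin of simple and glandular epithelium, gave signals of 893 and 1426 in parthenogenetic against 590.2 and 650.01 in fertilized embryos. It was higher in both ploidies, 1.51-fold between the diploid and 2.19-fold between the tetraploid arrays. The fitted difference was 0.86 ± 0.35 (95% interval 0.09 to 1.62), with an unadjusted p of 0.032 and a limma adjusted p of 0.54.

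The type I keratin Krt18 had the higher values in fertilized embryos, under all 3 scalings, and Krt19 was above the floor in fertilized embryos alone. Krt18, the usual partner of Krt8, reached 16498 and 14716 in parthenogenetic embryos, against 21391 and 20062 after fertilization. The parthenogenetic values were lower by 1.30-fold between diploid and 1.36-fold between tetraploid arrays, so the ploidies gave nearly the same difference. The fitted value was -0.41 ± 0.22 (95% interval -0.90 to 0.08; limma adjusted p 0.61). Krt19, a type I keratin without a tail domain, gave 16.1 and 61.1 against 186 and 161. It passed the filter through the fertilized arrays, so its place in that group was set in part by the filter. Both parthenogenetic signals were under the control floor and both fertilized signals above it, which makes fertilized embryos at least 1.33-fold higher by the floor. The fitted difference of -2.09 ± 1.28 has an interval from -4.88 to 0.70 (limma adjusted p 0.64) and depends on signals that are not above background.

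Since a filament takes up both kinds of chain in equal amounts, the change of one keratin against the other was also taken inside each array, where the scaling of the array cancels. The log2 signal of Krt8 minus that of Krt18 was 0.97 and 1.21 on the parthenogenetic arrays and 0.46 and 0.30 on the fertilized arrays. These values do not overlap and their means differ by 0.71. With the other Krt8 probe sets the means differed by 0.61 (1420647_a_at) and 0.63 (1423691_x_at), again without overlap. Krt7 minus Krt18 differed by 1.27 between the origins and Krt7 minus Krt8 by 0.56, both without overlap. An exact two-sided permutation test of 2 against 2 arrays gave p = 0.333 for each of these differences, the smallest value it allows. The brightest probe set of Krt8, its probe set 1423691_x_at and that of Krt7 already lay on the opposite side from Krt18 without overlap. Their differences from Krt18 therefore could not overlap either. Krt7 minus Krt8 was not fixed in this way, at -5.16 and -4.57 on the parthenogenetic and -5.61 and -5.23 on the fertilized arrays. Nor was 1420647_a_at minus Krt18. All of these differences are a description. They give no ratio of amounts, since probe sets differ in brightness.

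Neither cell junction gene passed the test. Dsp gave 8337 and 8301 in parthenogenetic against 12060 and 9308 in fertilized embryos by its brightest probe set (1435493_at; -0.35 ± 0.25, 95% interval -0.89 to 0.19, limma adjusted p 0.68). A further probe set (1435494_s_at) gave 8133 and 7841 against 7768 and 6261, with the parthenogenetic arrays higher (0.20 ± 0.25; limma adjusted p 0.83). The probe sets of Dsp thus disagreed in direction. The first minus the second was 0.04 and 0.08 on the parthenogenetic and 0.63 and 0.57 on the fertilized arrays. The means differed by -0.54 (exact permutation p = 0.333, the smallest possible). Since both probe sets already separated the origins, in opposite directions, their difference could not overlap and is a description. The third (1427610_at) was under the floor on 3 of 4 arrays, at 15.2, 16.3 and 19.6, and at 145 on the fertilized diploid array, just above its floor. It did not pass the filter.

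Cdh1, which encodes the adhesion protein of compaction, had the narrowest range of signals in the set by the brightest probe sets. It reached 7039.6 and 8219.95 in parthenogenetic embryos and 8109.9 and 8396 in fertilized ones. The parthenogenetic tetraploid value lies between those of the fertilized embryos, so the origins overlap. The difference was -0.12 ± 0.24 (95% interval -0.65 to 0.41; limma adjusted p 0.90), which leaves room for a change of up to 0.65 downward and 0.41 upward on the log2 scale.

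Lgals3 had the largest negative difference among members above the floor on all arrays. Its signals were 1197 and 1285 in parthenogenetic embryos, close to each other, and 3302 and 1896 in fertilized embryos. All parthenogenetic values lay below all fertilized ones, 2.76-fold between the diploid and 1.48-fold between the tetraploid arrays. The fitted difference was -1.01 ± 0.33 (2.01-fold lower; 95% interval -1.73 to -0.28), with an unadjusted p of 0.011 and a limma adjusted p of 0.42. The fertilized arrays differed from each other by 1.74-fold, more than the parthenogenetic ones (1.07-fold).

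Plac1 had the largest positive difference. It gave 14829.5 and 17873 without a sperm genome, against 5375 and 7065 after fertilization, by the 1 probe set of the gene. The lowest parthenogenetic signal was above the highest fertilized signal, and the fold was 2.76 between diploid and 2.53 between tetraploid arrays. Among all probe sets kept, 3.71% were at least 2-fold higher in both ploidies. The fitted difference was 1.40 ± 0.25 (2.64-fold; 95% interval 0.85 to 1.95), with an unadjusted p of 1.4e-04 and a limma adjusted p of 0.071, above the threshold. With ploidy as a block the adjusted p was 0.0099 for the same difference. That fit called 142 of 23746 probe sets, against 41 without the block. With arrays scaled to a common median the difference was 1.08 (limma adjusted p 0.31), where all probe sets kept had a median of -0.30. With the probe sets of each gene averaged the limma adjusted p was 0.12. Without the intensity trend it was 0.49, in a fit that called 0 of 23746 probe sets. Leaving out the fertilized diploid array gave 1.20 (adjusted p 0.22), while leaving out 1 of the other 3 arrays in turn gave adjusted p-values from 0.0057 to 0.045. Each of these fits has a single array for 1 origin, which is taken to vary like the pair of the other origin, and they called 46 to 715 probe sets.

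Plac1 lies on the X chromosome, whose genes mostly had higher values in parthenogenetic embryos. Of the 391 X-linked genes kept, 360 had a positive difference, with a median of 0.75 and quartiles at 0.42 and 1.14, beside a median of 0.00067 for the 10952 autosomal genes. The value of Plac1 exceeds the X-linked median by 0.65, and 62 of the 391 genes, itself counted, were at or above it. Among its protein-coding neighbours by RefSeq order, Mospd1 had 5269.7 and 7655 against 2837 and 2594 (1.22 ± 0.28; limma adjusted p 0.19) and Fam122b, next to Plac1, had 2789 and 4848 against 1782 and 2306 (0.86 ± 0.32; 0.51). On the other side, Hprt, a purine salvage gene, differed by 0.48 ± 0.23 (0.59). Phf6 (0.38 ± 0.52), Ccdc160 (-0.66 ± 0.66) and Gpc3 (0.84 ± 0.92) had errors as large as their differences or larger, to 2 decimals. The part of its chromosome in the value of Plac1 was not tested.

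**Figure D2:**
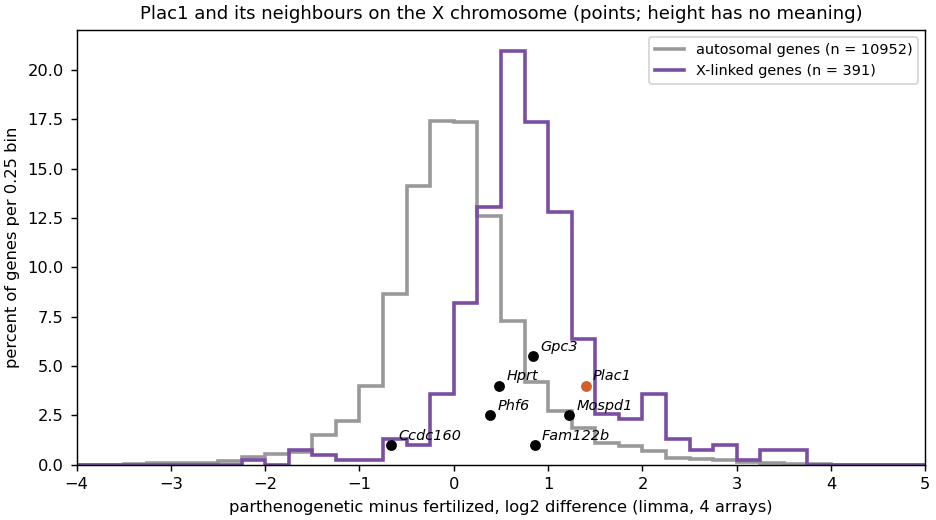
Distribution of the origin difference (parthenogenetic minus fertilized, log2, limma on 4 arrays) as percent of genes per bin for 391 X-linked genes (purple) and 10952 autosomal genes (grey), with Plac1 (orange) and its neighbours (black) as points whose height carries no value. The X-linked genes centre on 0.75 and Plac1 lies at 1.40, to the right of all of its neighbours shown.

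Plet1 did not separate the origins. Its brightest probe set (1423933_a_at) gave 943 and 1100.1 without fertilization, against 1029.9 and 606 with it. The diploid arrays were nearly equal (-0.13) and the tetraploid arrays differed by 0.85 in the other direction, so that the fit gave 0.36 ± 0.36 (95% interval -0.42 to 1.14; limma adjusted p 0.77). A dimmer probe set (1423934_at) had the same order, 189.5 and 360.3 against 200.04 and 122 (0.71 ± 0.56). Another (1454254_s_at) lay at 119 and 110.3 in parthenogenetic and at 6.73 and 125 in fertilized pools, near or under the floor, and did not pass the filter.

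Because the parthenogenetic tetraploid array stood apart, the origin differences were also taken without it, against a single parthenogenetic array. Plac1 was then at 1.27, with a limma adjusted p of 0.030 in a fit that called 175 of 23746 probe sets. Krt7 was at 0.52, Krt8 at 0.26 and Plet1 at 0.25, and Cdh1 was at -0.23, Krt18 at -0.33, Dsp at -0.35, Lgals3 at -1.06 and Krt19, under the floor in the parthenogenetic array, at -2.81, with limma adjusted p-values from 0.26 (Lgals3) to 0.897 (Plet1).

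**Figure D3:**
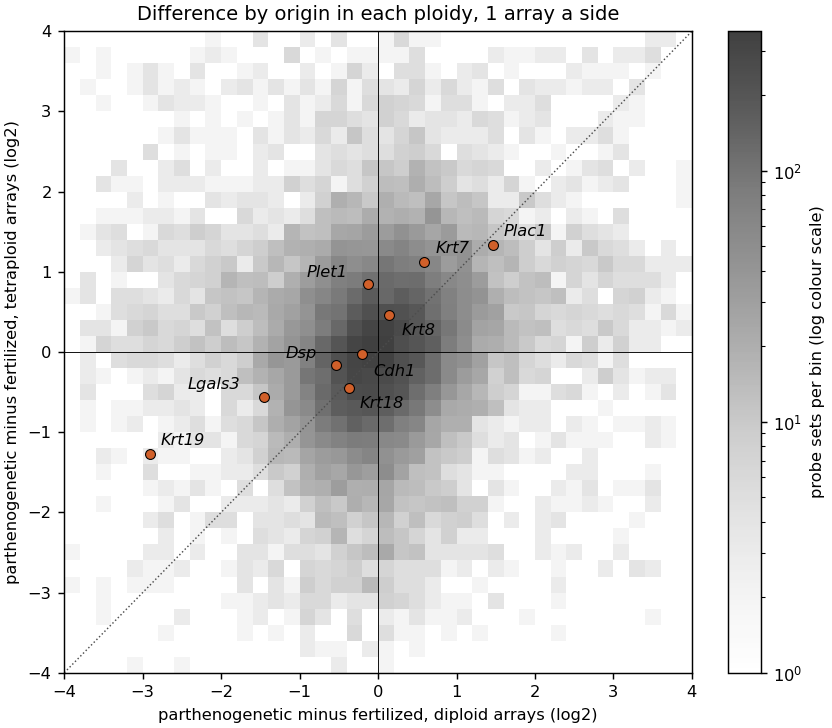
Difference by origin (log2) between the diploid arrays (horizontal axis) and between the tetraploid arrays (vertical axis), 1 array a side, for the brightest probe set of each of the 9 genes (orange) over all probe sets kept (grey bins, log colour scale; probe sets beyond 4 are not drawn). Plac1 (1.46 and 1.34), Krt18 (-0.37 and -0.45) and Cdh1 lie near the dotted line of equal differences, and Plet1 has opposite signs.

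Single pairs of arrays have no test. Between the diploid arrays, 1 of 13 probe sets was at least 2-fold higher in parthenogenetic embryos (Plac1; background 10.7%) and 2 were at least 2-fold lower by signal (Lgals3 and Krt19; background 9.75%). Of these, Krt19 was under the floor in the parthenogenetic pool, which bounds its difference at 1.65-fold or more. Between the tetraploid arrays, 3 were higher (Plac1, Krt7 and the dimmer probe set of Plet1; background 15.0%) and 1 was lower by signal (Krt19; background 11.7%), bounded by the floor at 1.07-fold or more.

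No member passed the test of ploidy. In the limma fit of tetraploid against diploid with origin as a covariate, 0 of 13 probe sets passed, 0 also at an unadjusted p under 0.05, where the background was 0.0% and 6.0% of all probe sets (2.61% higher and 3.39% lower in tetraploid embryos). Krt8 differed by -0.08 ± 0.24 (95% interval -0.60 to 0.44; adjusted p 0.98), Krt18 by -0.13 ± 0.24, Dsp by -0.19 ± 0.24 and Cdh1 by 0.14 ± 0.24. Cdh1 was the 1 member that was higher on both tetraploid than on both diploid arrays (background 14.0%), and 0 of 13 probe sets were lower on both (background 17.0%). Krt7 differed by 0.40 ± 0.33, Lgals3 by -0.35 ± 0.29 and Plac1 by 0.33 ± 0.24 (adjusted p 0.87), the last of them with values of 0.27 and 0.39 within the origins. Between the parthenogenetic arrays only Krt19 was past 2-fold by signal, with both values under the floor and so no measured fold (background 11.1% higher and 12.2% lower), and between the fertilized arrays 0 of 13 did (7.05% higher and 10.3% lower).

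**Figure D4:**
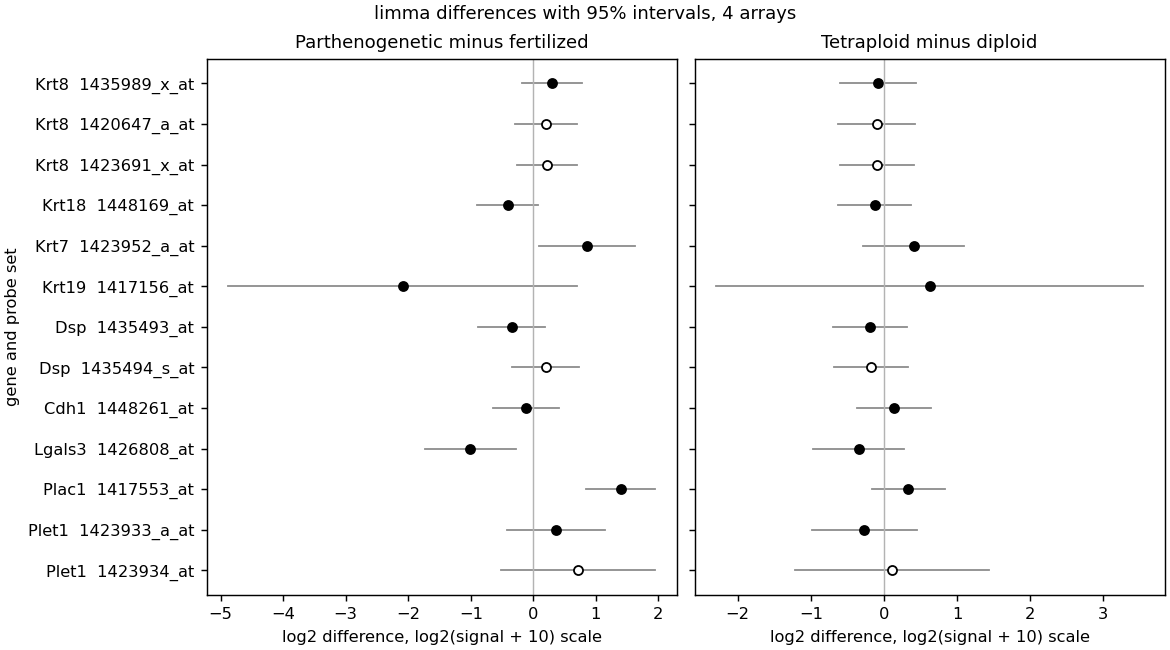
limma differences (points; filled for the brightest probe set of a gene, open for others) with 95% intervals (grey lines) for the 13 probe sets kept, on the log2(signal + 10) scale, for origin (left) and ploidy (right). For origin, the intervals of Plac1, Krt7 and Lgals3 leave out 0 before adjustment, and for ploidy all intervals include 0.

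The partners of these proteins were followed in 8 further lists of keratins, desmosome, cytolinker, adherens junction, galectin, surface and intermediate filament genes. Of 123 genes listed, 115 were on the array and 73 were kept. With limma, 0 rose and 0 fell at the adjusted threshold by origin, and 5 (6.85%) had an unadjusted p under 0.05, against 9.98% of all genes kept. Their values lay on both sides of 0, with 40 higher and 33 lower in parthenogenetic embryos and a median of 0.03. Of all genes kept, 5872 were higher and 5532 lower (median 0.02). Leaving out 1 array turned the sign of the median in 6 of 8 lists, so these medians carry no stable direction as a group. With arrays scaled to a common median 7 of 8 were negative. All genes then had a median of -0.30, so this count reflects in part a shift that all genes shared.

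Few other keratins were above background. Of 34 keratins of stratified epithelium and hair on the array, 19 were at or under the floor on all 4 arrays, Krt1, Krt4, Krt13, Krt15 and Krt17 among them, and 9 passed the filter. Krt78, the gene next to Krt8, gave 19.02 and 37.4, under the floor, in parthenogenetic embryos and 348 and 178 in fertilized ones (at least 1.90-fold higher by the floor; limma adjusted p 0.53), and like Krt19 it passed the filter through the fertilized arrays. Krt10 and Krt81, the brightest of the list, differed by -0.14 ± 0.45 and 0.69 ± 0.52, and Krt83 was above the floor on the fertilized tetraploid array alone. Of the 5 keratins placed in a further list for simple epithelium, Krt20, Krt23, Krt80 and Krt222 were at or under the floor on all arrays. The epithelium in which each is made was not checked here. Krt42, a type I keratin, had 652 and 778 against 509.7 and 265 (0.93 ± 0.40; limma adjusted p 0.56), but with all its probe sets averaged the difference was 0.055.

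Genes listed as desmosome genes or as cytolinkers of keratin filaments were measured on both sides of 0. Whether the product of each binds keratin was not checked here. Of 10 desmosome genes kept, 6 had higher and 4 lower values in parthenogenetic embryos (median 0.02). Dsg2, a desmosomal cadherin, had nearly equal signals of 8598 and 8411 against 8938 and 8734 (-0.06 ± 0.24). Perp, a desmosomal membrane protein gene, differed by -0.31 ± 0.24. Dsc3 had 251 and 229.98 against 52.3 and 43.6, the latter under the floor, which makes parthenogenetic embryos at least 2.0-fold higher (limma adjusted p 0.54). Dsc1, with both fertilized signals under the floor, was at least 1.60-fold higher (0.66). Both passed the filter through the parthenogenetic arrays. Of 6 cytolinker genes 4 were higher and 2 lower (median 0.11), with Plec, which encodes plectin, at -0.12 ± 0.29, Macf1 at -0.58 ± 0.30 and Pnn at 0.04 ± 0.39. Tchp was at 1.45 ± 0.93, with the fertilized diploid array under the floor and the tetraploid pair at -0.25.

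No partner of E-cadherin passed the test. Of 11 adherens junction genes kept, 7 were higher and 4 lower (median 0.07). The catenin genes Ctnnb1 (40726 and 46101 against 31239.6 and 43478; 0.23 ± 0.23) and Ctnna1 (0.27 ± 0.23) were bright on all arrays. Nectin1 (2.01 ± 0.97) and Ctnnal1 (-0.84 ± 0.36) had the largest fitted differences, that of Nectin1 with the fertilized tetraploid array under the floor and the diploid pair at 0.27. Of 5 galectin genes other than Lgals3, 1 was higher and 4 were lower (median -0.18). Lgals1 had 31198 and 26185 against 36867 and 32343 (-0.27 ± 0.22), Lgals8 differed by -0.69 ± 0.36 and Lgalsl by 0.53 ± 0.36. Of 23 other surface genes, 13 were higher and 10 lower (median 0.06). The tetraspanin Tspan8 (0.28 ± 0.21) and Epcam, an epithelial adhesion molecule (0.14 ± 0.26), were the brightest probe sets. Itga7 (0.98 ± 0.62) and Podxl (0.83 ± 0.77) had the largest fitted differences, each with 1 array under the floor. Of 8 other intermediate filament genes, 3 were higher and 5 lower (median -0.12; 0.27 without the parthenogenetic tetraploid array and -0.44 without the parthenogenetic diploid array). Lmna (-0.01 ± 0.28) and Lmnb1 (0.06 ± 0.30), which encode nuclear lamins, were nearly equal between the origins, Nefl differed by 0.82 ± 0.54 and Nefm, with the fertilized tetraploid array under the floor, by 1.24 ± 0.65.

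**Figure D5:**
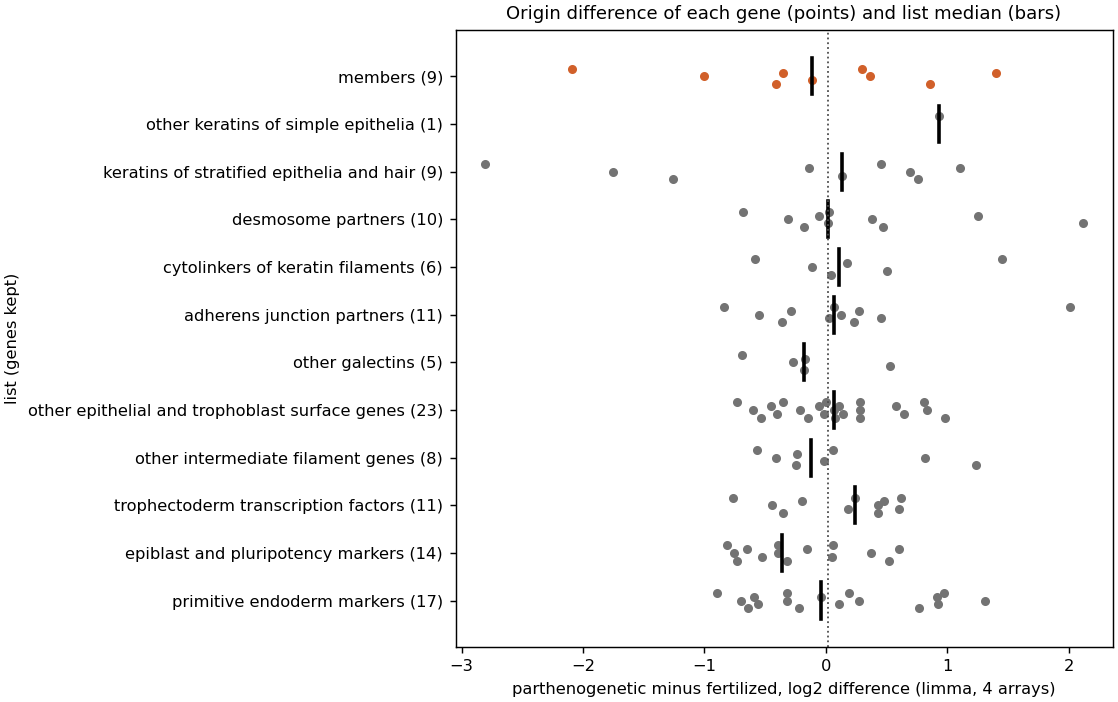
Origin difference (parthenogenetic minus fertilized, log2, limma on 4 arrays) of each gene kept, by list (points; vertical spread only separates them), with the list median (bar) and the median of all 11404 genes kept (dotted line, 0.02). The 9 members (orange) reach from -2.09 (Krt19) to 1.40 (Plac1).

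Of the markers of the cell types in a blastocyst, 0 rose and 0 fell with origin at the adjusted threshold in limma. At an unadjusted p under 0.05 by origin there were 4 of 14 epiblast markers (28.6%), against 9.98% of all genes kept. There were 1 of 11 trophectoderm factors (9.09%) and 1 of 17 primitive endoderm markers (5.88%). The 11 trophectoderm factors had a median of 0.24 (7 higher, 4 lower), which was -0.09 with common median scaling, where all genes had -0.30. The median of these factors was 0.0038 with all probe sets of a gene averaged and 0.14 to 0.31 with 1 array left out. Among them were Eomes at 0.62 ± 0.29, Tfap2a at 0.43 ± 0.28 and Tead4 at -0.76 ± 0.34, and the summed signal of the 11 was 67983 and 77945 in parthenogenetic against 59265 and 69514 in fertilized embryos. The 14 epiblast markers, all above the floor on all arrays, had a median of -0.36 (5 higher, 9 lower), which was 0.13 without the parthenogenetic tetraploid array, and summed signals of 43937 and 34662 against 48727 and 44422. Sall4 (0.06 ± 0.23) and Zfp42 (-0.39 ± 0.25) were the brightest, and Dppa3 (-0.81 ± 0.31) and Tdgf1 (-0.76 ± 0.32) differed most. Esrrb was listed both among the epiblast markers and among the trophectoderm factors. The 17 primitive endoderm markers had a median of -0.04 (-0.31 to 0.25 with 1 array left out), with Lamb1 at 0.11 ± 0.24, Fgfr2 at -0.04 ± 0.25, Amn at 1.32 ± 0.64 and Sox7 at 0.97 ± 0.57. Their summed signal was 90914 and 62275 against 91142 and 76275, lowest on the parthenogenetic tetraploid array. By ploidy, 15 of these 17 and 13 of the 14 epiblast markers had lower values in tetraploid embryos (medians -0.65 and -0.46), and 0 passed. Of all 11404 genes kept, 6177 had lower values in tetraploid embryos (median -0.05). At an unadjusted p under 0.05 by ploidy there were 8 primitive endoderm (47.1%) and 4 epiblast markers (28.6%), against 6.93% of all genes. Of the 11 trophectoderm factors, 6 had higher and 5 lower values in tetraploid embryos (median 0.09). Here too, 3 (27.3%) had an unadjusted p under 0.05 and 0 passed. The part of these shifts in the values of the trophectoderm genes was not tested.

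Markers of cells other than those of the embryo, and of later trophoblast, were mostly near the floor. Of 8 fibroblast markers, Col1a1, Thy1, Lum and Pdgfrb were at or under the floor on all arrays and 1 passed the filter (Postn, above the floor on both diploid arrays). Of 7 cumulus cell markers, Amh, Inhba and Fshr were at or under the floor throughout and 2 were kept (Star at 1.27 ± 0.47, and Has2, above the floor on both diploid arrays). Of 8 oocyte markers, Zp1, Zp2, Nlrp5 and Omt2a were at or under the floor throughout and 1 was kept (Oosp1, above the floor on both tetraploid arrays). Of 6 markers of later trophoblast, Ctsq and Ctsj were under the floor, and Ada (0.998 ± 0.446), Hand1 (0.09 ± 0.46), Tpbpa (at least 1.53-fold higher in parthenogenetic embryos by the floor) and Ascl2 (above the floor on 1 array) were kept. Summed signals of the fibroblast list were 666 and 526 against 441 and 379, and those of the cumulus list 1018 and 798 against 694 and 234. Those of the oocyte list were 548 and 879 against 592 and 353. On any 1 array, at most 3 of 8 fibroblast, 4 of 7 cumulus and 2 of 8 oocyte markers were above the floor. These sums thus take in many signals at or under the floor and do not rank the arrays. The later trophoblast list summed to 895 and 1361 against 704 and 477, with at most 4 of 6 markers above the floor on any 1 array. This sum too takes in signals under the floor. The 4 genes kept were all higher in parthenogenetic embryos (median 1.07, 0.22 to 1.20 with 1 array left out). At an unadjusted limma p under 0.05 there was 1 of 4 (25%), against 9.98% of all genes kept. The part of these marker lists in the results was not tested.

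The 4-array profile of each gene was also set against all other probe sets kept with 1 gene, by the root mean square distance of log2 values centred on their mean over the 4 arrays. The nearest genes were Tmem86a (0.03), Tmem64 (0.04) and Ube2a (0.04) for Plac1, Ing5, Lima1 and Adgre5 for Lgals3 (0.04 to 0.06), and Tmcc3, Shoc2 and Map4 for Krt7 (0.02 to 0.04). Krt8 was nearest to Mrtfa, Kctd2 and Itga5, Krt18 to Pdcd2, Necab2 and Bag4, Dsp to Mrpl9, Igf2 and Cpeb3, Plet1 to Sumf1, Fam221b and Alg14, and Cdh1 to Ndufc1, Slmap and Psmc3, all at distances of at most 0.025. Krt19, under the floor on 2 of 4 arrays, had no probe set within 0.1, the nearest being Cetn4, Gpx7 and Phf8 (0.11 to 0.13). With 4 arrays many probe sets can lie close to a member, though how many depended on the profile. Of 19617 probe sets, 428 lay within 0.1 of Cdh1, 61 within 0.1 of Krt7, and 12 each within 0.1 of Plac1 and Lgals3. For Krt8 it was 301 of 19615.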

How the data were processed

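The members and the gene lists were chosen with earlier results of these data known. The authors deposited 1 intensity per probe set and array, a linear signal made with MAS5 per the submitters' processing notes, with no version. Other steps, detection calls and probe files were not used here or are not given in the sources used here. All 4 arrays shared a trimmed mean signal of 500.0 (2% left out at both ends), and they were not rescaled. Gene names came from the platform annotation (34958 probe sets with 1 symbol, 932 with several, 9211 with none). Of those with 1 symbol, 34754 matched RefSeq genes of GRCm38.p6 by gene number.

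Signals were tested as log2(signal + 10) with limma 3.58.1 in R 4.3.3 (lmFit, eBayes with an intensity trend) on 23746 probe sets, with Benjamini-Hochberg adjustment over all of them. Such fold changes understate those of dim genes. The origin fit had 2 residual degrees of freedom and the ploidy fit, with origin as covariate, had 1. With eBayes the error of each probe set is drawn towards that of probe sets of like signal. The standard errors, intervals and p-values of a member thus rest in part on other probe sets. The script was tested on simulated data. A gene in a list is its probe set with the highest mean signal. Named from each list were genes past the threshold, the 2 brightest and the 2 with the largest origin difference. Nearest genes are the 3 with the smallest distance. Genes named as at or under the floor, Krt78 as a neighbour, and the factors given as stage markers were named after their values were seen. No replicate, batch or scan date could be tested from the values used here, and the number of arrays limits the precision.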

Additional observations from a re-analysis of the deposited data

Results flagged for a closer look

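In 5 cases a member differed in opposite directions in the arrays of each ploidy or origin. With 1 array a side these differences were not tested, and 41.6% of the 11404 genes kept had opposite signs by origin and 46.6% by ploidy. Plet1 differed by -0.13 between parthenogenetic and fertilized diploid arrays and by 0.85 between tetraploid arrays. Tetraploid minus diploid, Plet1 differed by 0.22 in parthenogenetic and by -0.75 in fertilized embryos. Lgals3 differed by 0.10 and -0.80 in the same order, Krt8 by 0.079 and -0.25, and Krt19 by 1.45, between signals under the floor, and -0.20.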

How the results depend on the processing

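The 15 further lists and the 9 members were recomputed under other pseudocounts (1 and 50), filters, scalings, fits and with each array left out. The count of member probe sets past the threshold by origin was 0, where 41 of 23746 probe sets passed in all. It was 1 (Plac1, adjusted p 0.042) with the filter at the 75th percentile (50 of 11764 in all), 1 with ploidy as a block, which compares the origins within a ploidy (142 in all), and 0 to 1 in leave-one-out fits (46 to 715 in all). Without the parthenogenetic tetraploid array, which stood apart, it was 1 (Plac1, 1.27, adjusted p 0.030; 175 in all). Without the intensity trend Plac1 had an adjusted p of 0.49 (0 of 23746 in all), and with common median scaling 0.31 (37 of 23749 in all). By ploidy the count was 0 under every alternative that gave a test. The median of the members was 0.091 with the filter at the 75th percentile, which left out Krt19 and all genes of 5 marker and keratin lists, and -0.44 with common median scaling, where all genes had -0.30. With that scaling Krt8 turned to -0.025 by origin and to 0.0032 by ploidy. By origin it lay 0.28 above the median of all probe sets with and without the scaling. Plet1 ranged from -0.016 (without the fertilized tetraploid array) to 0.74 (without the fertilized diploid array) by origin in leave-one-out fits, and the cause was not tested. Krt18, Krt19, Krt7, Dsp, Lgals3, Plac1 and Cdh1 kept their direction by origin under all alternatives run. For Dsp the direction depended on the probe set. It was -0.077 with its probe sets averaged, and 1435494_s_at alone had 0.20. A ploidy value without 1 array rests on a single pair and has no test.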
